A study of Mus musculus with 84 samples.

Results

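Cholesterol synthesis was followed in microglia, the resident macrophages of the brain, through 7 genes of the pathway and its control: Hmgcs1, Idi1, Fdps, Sqle, Lss, Insig1 and Srebf2. The genes were chosen by name and found by their Ensembl identifiers, and all 7 were present among the 49671 identifiers counted. The data were bulk RNA-seq counts of 84 libraries of flow-sorted mouse microglia after severe traumatic brain injury (TBI), which fall into 22 groups by day, treatment and year of the library. The treatments were injury only (20 libraries), no injury (19), injury with clodronate liposomes, which deplete peripheral monocytes (24), and injury with PBS liposomes as vehicle (21), at 1, 7, 14, 30 and 60 days. Uninjured controls are called sham in the titles and naive in the library names. The sources used here do not give strain, sex, age or the sort gates. The labels do not say that each library came from its own mouse, so a p-value measures only the spread among libraries, which may be technical.

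Cells make cholesterol from acetyl-CoA through mevalonate, isoprenoid diphosphates, squalene and lanosterol. The transcription factor SREBP2 turns on the genes of this pathway when sterols in the endoplasmic reticulum are low, and INSIG proteins hold SREBP2 back when sterols are high. In the adult brain cholesterol is made locally, because the blood-brain barrier keeps out plasma lipoproteins. Microglia take up cholesterol with myelin debris and export it through the LXR receptors and their targets.

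Promoter sequence is shown for 3 genes: Lss and Srebf2, which rose on day 1, and Hmgcs1, which did not pass the test. Whether their fold changes differed from each other was not tested. Sequences are from RefSeq on GRCm38.p6, plus strand, 5′ to 3′, and stop before the first annotated transcript start. Capitals mark 2 motifs read on both strands. The first is TCACCCCA, a core of the sterol regulatory element, or its 9-letter form TCACNCCAC with 1 free base, which overlaps it. The second is the NF-Y box CCAAT, whose reverse complement is ATTGG. The core was chosen after these promoters had been seen.
Hmgcs1, chr13:119690101-119690350: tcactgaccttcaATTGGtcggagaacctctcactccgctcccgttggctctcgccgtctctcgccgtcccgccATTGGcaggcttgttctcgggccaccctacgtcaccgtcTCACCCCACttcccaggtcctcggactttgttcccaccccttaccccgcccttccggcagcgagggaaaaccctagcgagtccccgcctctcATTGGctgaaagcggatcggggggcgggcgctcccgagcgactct
Srebf2, chr15:82147019-82147180: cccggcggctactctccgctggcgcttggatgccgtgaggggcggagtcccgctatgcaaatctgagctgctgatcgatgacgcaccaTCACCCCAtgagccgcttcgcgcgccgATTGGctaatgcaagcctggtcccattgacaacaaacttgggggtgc
Lss, chr10:76531355-76531587: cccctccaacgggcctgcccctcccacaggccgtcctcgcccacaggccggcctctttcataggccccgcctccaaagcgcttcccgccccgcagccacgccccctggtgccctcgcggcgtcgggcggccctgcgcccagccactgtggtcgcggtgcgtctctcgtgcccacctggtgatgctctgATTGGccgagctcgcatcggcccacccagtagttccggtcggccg

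TCACCCCA stood once in the 250 bases before the RefSeq start of Hmgcs1, at position -137, and once in that of Srebf2, at -162. It was absent from the same window of Lss, Insig1 and Idi1. Over the 32817 promoters of the RefSeq table, 1.34% held it, and 1.05% held the 9-letter form, which Hmgcs1 alone of these 5 genes held. The core was chosen with these promoters seen, so these shares are no test of enrichment. CCAAT stood in the window of all 5 genes, 3 times in that of Hmgcs1, against 33.8% of all promoters. The GC box GGGCGG, also searched, stood in the window of all 5 genes too, against 32.7% of all promoters. In Idi1 the matches of CCAAT and of the GC box lay past the first annotated transcript start. No sequence is printed for Sqle and Fdps. A match is a description of letters and not a site of binding.

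Levels are given as CPM, read counts scaled to a common library size (TMM). Total gene counts ranged from 11145687 to 16035926 per library on day 1, 1134078 to 15375096 on day 7, 8681681 to 18654785 on day 14, 9936026 to 16480776 on day 30 and 1109856 to 12306417 on day 60. The summed level of 8 microglial markers was 12936 to 36230 CPM in all libraries but uninjured library 3 of day 14, at 1551 CPM. That library held 6225 CPM of 8 monocyte markers and 9504 CPM of 6 neutrophil markers, where no other library passed 1365 and 50.65 CPM. The comparison of injury only with uninjured on day 14 is therefore given with and without it. Other results that use day 14 include it unless stated. Vehicle library 4 of day 7 was shallow, with 1134078 counts. Of its reads 22.4% lay in no annotated gene, against a median of 5.07% over all libraries. Mitochondrial genes held 3.01% of its counts, against 0.199% to 0.421% in the other vehicle libraries of day 7.

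Per kilobase of exon, Insig1 was the highest of the 7 genes, with a median over all libraries of 7.10 CPM per kb, followed by Hmgcs1 (6.32), Srebf2 (3.28), Idi1 (1.67), Sqle (1.02), Lss (0.872) and Fdps (0.441). Insig1 thus lay above 73.2% and Fdps above 35.6% of 17736 genes on that scale. Within a group, the median coefficient of variation was 16.1% for Insig1, 17.2% for Hmgcs1 and 16.7% for Srebf2, so the gap of Srebf2 to Insig1 was wide beside that spread and the gap of Hmgcs1 to Insig1 was within it. It was 28.1% for Idi1, 32.8% for Sqle, 23.1% for Lss and 34.6% for Fdps, and the gap between Sqle and Lss was also within that spread. Fdps rested on a median of 23 counts per library. It shares 1124 exonic bases on its own strand with Gm43738, whose median count was 0, and reads shared between them may not have been counted to either.

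**Figure D1:**
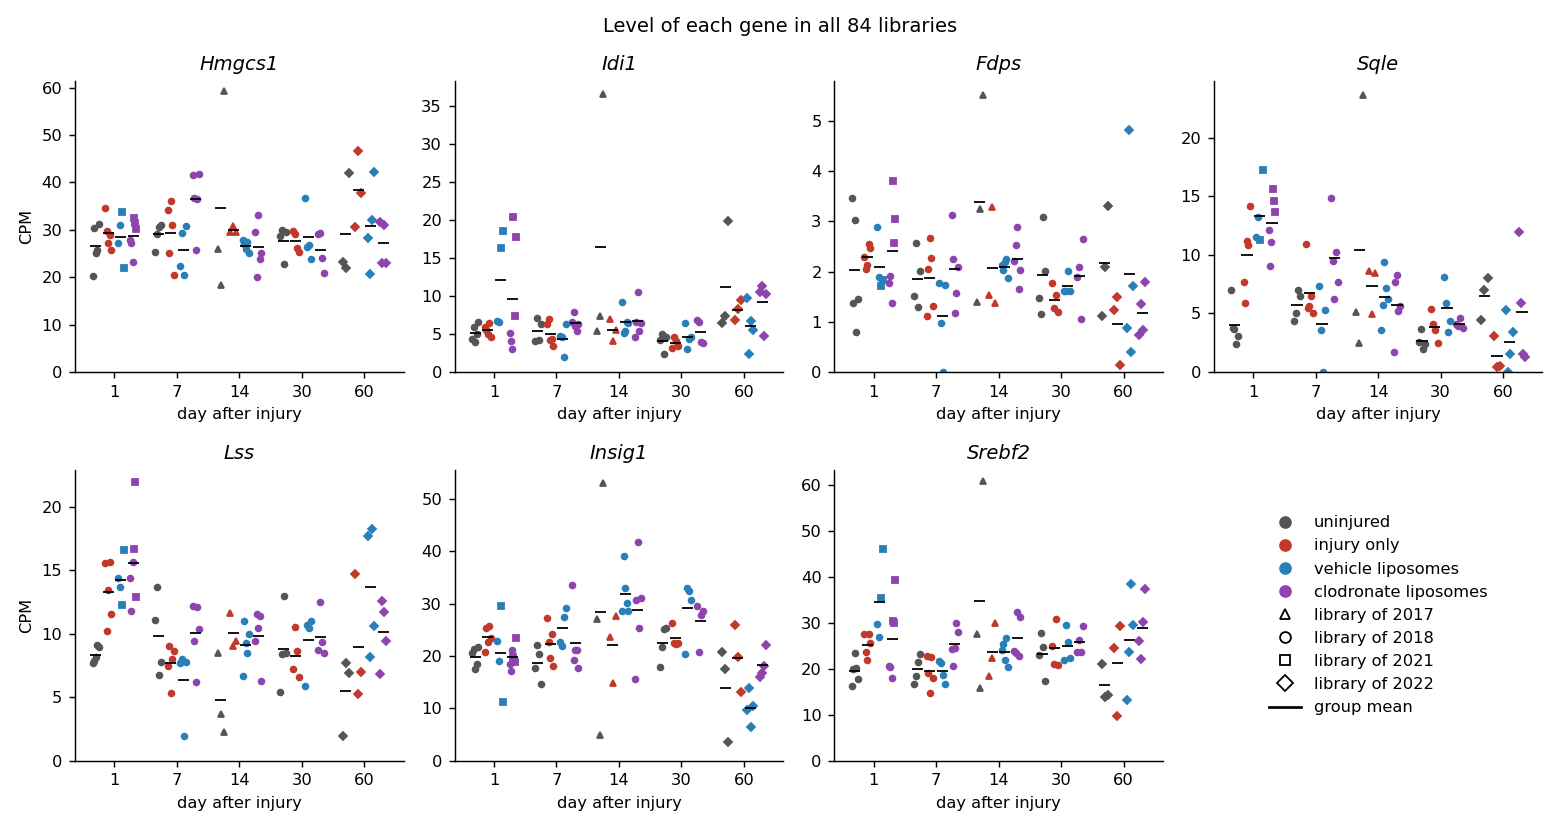
Level of each gene in CPM (linear axis from 0) against the day after injury, 1 point per library, coloured by treatment and shaped by library year, with a short line at each group's mean (on day 1 over both years). Sqle and Lss stood higher in injured than in uninjured libraries on day 1, and uninjured library 3 of day 14 stood alone at 59.4 CPM of Hmgcs1 and 36.5 CPM of Idi1.

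Hmgcs1 encodes the cytosolic synthase that condenses acetyl-CoA units early in the pathway. It was the steadiest of the 7 genes across groups: the highest group mean, 38.4 CPM in injury only of day 60, was 1.49 times the lowest, 25.8 CPM in vehicle of day 7. The same ratio was 2.48 for Srebf2, 3.13 for Insig1, 3.56 for Fdps, 3.57 for Lss, 4.55 for Idi1 and 11.0 for Sqle. Sqle, the squalene epoxidase at a rate-limiting step late in the pathway, was thus the most variable, from 1.33 CPM in injury only of day 60 to 14.6 CPM in the clodronate libraries of day 1 from the later library year. These ratios are descriptions over 22 groups, and low counts widen them: Sqle had 0 counts in 2 libraries and Fdps in 1. The highest mean of Fdps (3.39 CPM) and the lowest of Lss (4.81 CPM) were those of the uninjured libraries of day 14, with library 3 included.

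The effect of injury was asked by comparing injury only with uninjured libraries on each day. On day 1, Sqle, Lss and Srebf2 rose, and Hmgcs1, Idi1, Fdps and Insig1 did not pass the test. A gene "rose" or "fell" where its adjusted p was under 0.05 (edgeR's quasi-likelihood F test, Benjamini-Hochberg over all genes tested). The 3 risen genes compare with 18.5% of all genes tested that were called higher on day 1, and 33.8% that were called in either direction. All 7 fold changes were positive, with a median of 0.22 on the log2 scale, against 0.0048 over all genes.

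Sqle stood at 7.68, 5.90, 11.2, 10.8 and 14.2 CPM in the 5 injury-only libraries and at 7.00, 3.77, 3.66, 2.401 and 3.10 CPM in the 5 uninjured ones. All 5 injured libraries lay above the uninjured mean, and the ranges overlapped only through uninjured library 1. The log2 fold change was 1.29 (SE 0.26, edgeR adjusted p = 0.000382), from 3.99 ± 1.77 to 9.96 ± 3.23 CPM (mean ± SD).

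Lss, or lanosterol synthase, closes the sterol rings in the step after Sqle. It stood at 15.6, 10.2, 13.5, 15.7 and 11.6 CPM after injury and at 7.68, 7.90, 8.21, 9.12 and 8.96 CPM without. The groups did not overlap, and how many of all genes had groups without overlap was not counted. Lss rose by 0.64 log2 units (SE 0.16, edgeR adjusted p = 0.00385), from 8.37 ± 0.64 to 13.3 ± 2.42 CPM. In the 15 alternative settings tried for this comparison, Sqle and Lss were called in all 15.

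Srebf2, which encodes SREBP2 itself, stood at 27.6, 23.7, 21.8, 27.6 and 25.6 CPM after injury and at 16.3, 20.0005, 23.6, 20.2 and 17.8 CPM without. The ranges overlapped by uninjured library 3. Its log2 fold change of 0.34 (SE 0.13, edgeR adjusted p = 0.0409) lay close to the threshold: it was called in 5 of 15 alternatives, with adjusted p from 0.0150 to 0.137. The call was lost with DESeq2's size factors (0.0585), without the filter on low counts, with the replicate block (0.0724), and without any of injury-only libraries 1, 4 and 5 or uninjured libraries 1, 2, 4 and 5.

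The other 4 genes of the set did not pass the test on day 1. Insig1, an early response gene of SREBP2 and a brake on it, stood at 23.6 ± 2.04 against 19.9 ± 1.82 CPM (0.22 log2 units, SE 0.17, edgeR adjusted p = 0.339). Hmgcs1 stood at 29.2 ± 3.32 against 26.6 ± 4.46 CPM (0.11, SE 0.13, adjusted p = 0.55). Idi1, which isomerises isopentenyl diphosphate, differed by 0.07 (SE 0.23), and Fdps, which makes farnesyl diphosphate, by 0.15 (SE 0.36). The standard error of Fdps leaves a change of the size of Lss undetectable at its depth.

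**Figure D2:**
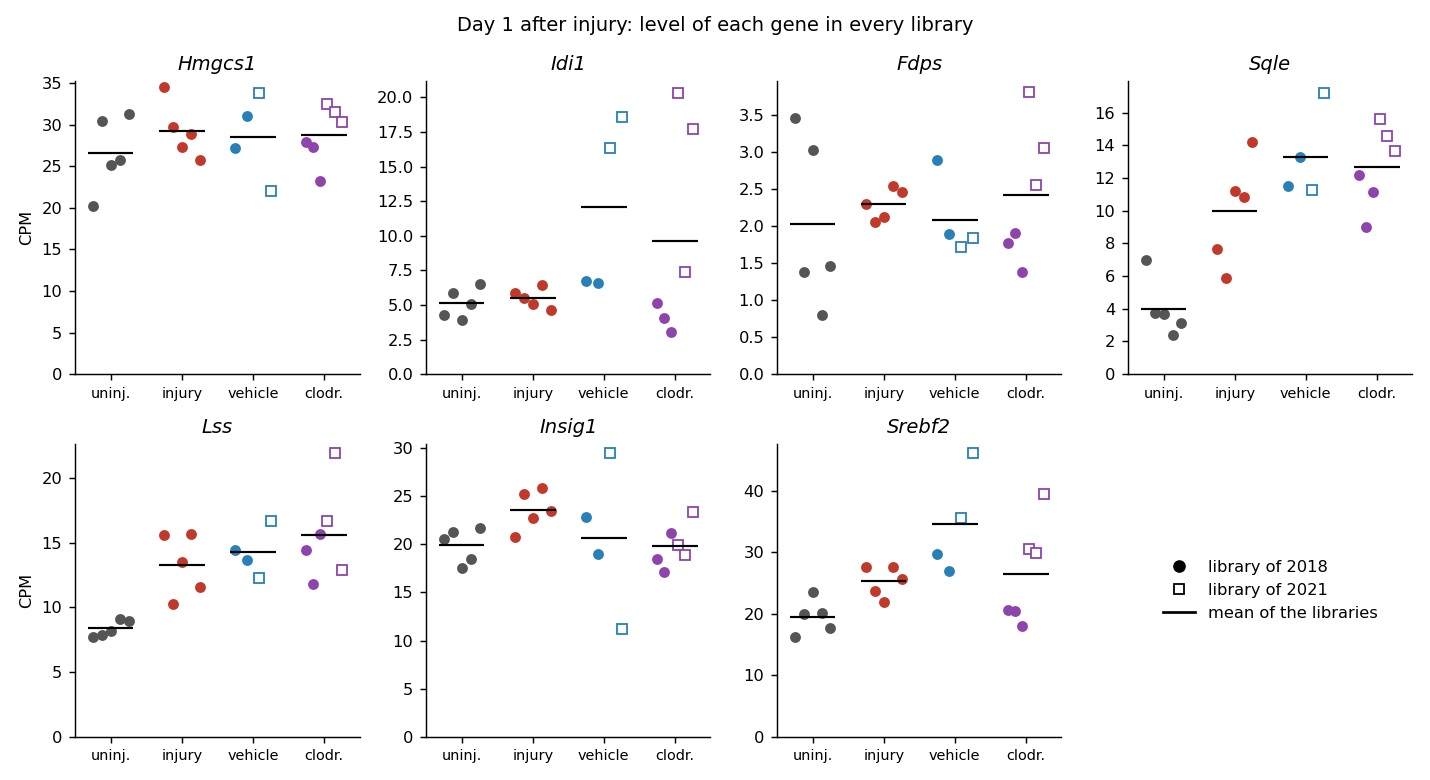
Level of each gene on day 1 in CPM (linear axis from 0), 1 point per library, filled for the earlier library year and open for the later, with a line at the mean of all libraries of a treatment. For Lss every injured library, whatever its treatment, lies above the highest uninjured one at 9.12 CPM, and Idi1 and Srebf2 lie higher in the open points.

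Libraries of injured mice given liposomes also stood high for Lss and Sqle on day 1. Of the 15 injured libraries of any treatment, 15 lay above the highest uninjured library for Lss, 14 for Sqle and 11 for Srebf2. The count was 7 for Insig1 and Idi1, 4 for Hmgcs1 and 1 for Fdps. These counts were not made over all genes. For Srebf2 the clodronate libraries of the earlier year, at 18.0 to 20.7 CPM, lay within the uninjured range of 16.3 to 23.6 CPM. Library year moved with part of these counts. Among the liposome libraries of day 1, Idi1 was at 3.04 to 6.76 CPM in the 5 of the earlier library year and at 7.38 to 20.3 CPM in the 5 of the later year, and Srebf2 at 18.0 to 29.8 and 29.9 to 46.2 CPM. Neither gene's years overlapped, Srebf2 only by the gap from 29.8 to 29.9 CPM, whereas those of the other 5 genes did. How many of all genes had years without overlap was not counted. Injury-only and uninjured libraries of day 1 were all of the earlier year.

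Other cell markers and handling genes moved in the same day 1 comparison. All 8 microglial markers fell, with summed levels of 14545 to 17496 CPM after injury and 29344 to 34128 CPM without. Of 7 monocyte markers tested 5 rose, from summed levels of 13.6 to 17.4 CPM to 71.9 to 168 CPM, and both neutrophil markers tested rose, from at most 0.217 CPM to 1.79 to 6.45 CPM. In uninjured libraries 4 of the 6 neutrophil markers were at 0. Of border macrophage markers 1 of 6 fell, of astrocyte markers 1 of 8 rose and 1 fell, of oligodendrocyte lineage markers 3 of 8 rose and 2 fell, of neuron markers 1 of 8 fell and of endothelial markers 2 of 7 rose. Of 12 immediate early and heat shock genes, which respond to tissue handling, 11 fell, with summed levels of 39857 to 52058 CPM against 77238 to 90496 CPM. The part of these shifts in the changes of Sqle, Lss and Srebf2, and of the pathway lists on day 1, was not tested. In bulk libraries, fewer cells of a type and less RNA per cell cannot be told apart.

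The counts of the wider pathway lists on day 1 stand beside the 33.8% of all genes called in either direction. The share called was 13.3% of the other sterol enzymes, 25% of SREBP processing and further targets, 62.5% of the isoprenoid branch, 40.0% of the SREBP1 and fatty acid list and 38.5% of the efflux and LXR list, each of 8 to 15 genes, so 4 of the 5 lists lay near or below that of all genes. Of 15 other sterol synthesis enzymes tested, 2 rose and 0 fell, and their median log2 fold change was -0.0085. Hsd17b7, the 3-ketosteroid reductase that acts after lanosterol, rose from 3.40 ± 1.499 to 11.8 ± 2.09 CPM (1.77 log2 units, SE 0.26, edgeR adjusted p = 1.29e-05). Dhcr7, which completes cholesterol by reducing its immediate precursor, rose from 20.4 ± 2.49 to 29.6 ± 3.47 CPM (0.51, SE 0.11).

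**Figure D3:**
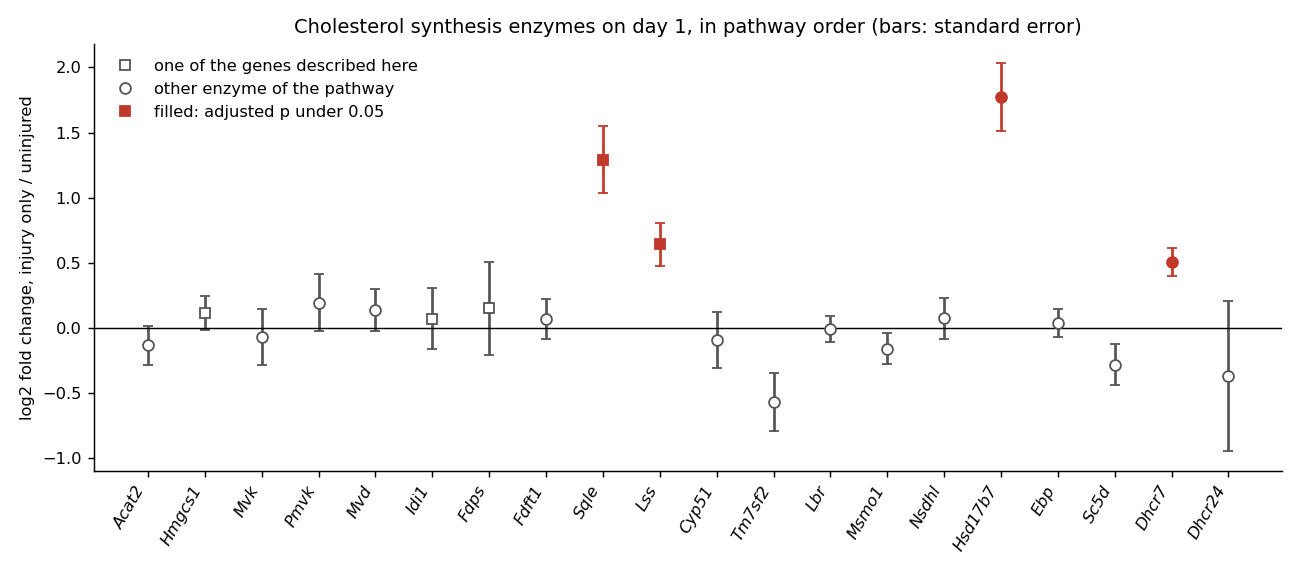
Log2 fold change of injury only against uninjured on day 1 (y axis) for cholesterol synthesis enzymes in the order of the pathway (x axis), with bars of 1 standard error and filled red symbols at an adjusted p under 0.05. Sqle (1.29), Lss (0.64), Hsd17b7 (1.77) and Dhcr7 (0.51) carry the filled symbols.

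Of 8 genes of SREBP processing or further SREBP2 targets tested, 1 rose and 1 fell. Tmem97, a sterol-responsive membrane protein, rose from 15.4 ± 0.93 to 37.8 ± 4.49 CPM (1.27 log2 units, SE 0.11, edgeR adjusted p = 2.05e-08). Insig2, the other INSIG protein, fell by 0.42 log2 units (SE 0.09), from 52.6 ± 3.58 to 40.1 ± 1.39 CPM.

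In the isoprenoid branch, which draws on farnesyl diphosphate, 3 of 8 genes rose and 2 fell. Pdss1, needed for the tail of ubiquinone, rose by 1.73 (SE 0.23), and Nus1 and Dhdds, the subunits of the enzyme that makes dolichol chains, rose by 0.81 (SE 0.14) and 0.46 (SE 0.11) on the log2 scale. Fnta, the shared subunit of farnesyl and geranylgeranyl transferases, fell by 0.61, and Ggps1, which makes geranylgeranyl diphosphate, fell by 0.35 (not called without the filter on low counts, edgeR adjusted p = 0.0733). The SREBP1 and fatty acid list had 4 of 10 genes up and 0 down, with a median of 0.45. Fasn, the fatty acid synthase, rose from 9.37 ± 4.03 to 37.3 ± 20.97 CPM (1.96, SE 0.32), Acaca by 1.10, Srebf1 by 0.50 and Scd2 by 0.35. The calls of Acaca and Scd2 each hung on single libraries. That of Acaca was lost without injury-only library 4 or 5 or uninjured library 1, 2 or 3, and that of Scd2 without injury-only library 1, 3 or 4 or uninjured library 1 (edgeR adjusted p up to 0.146 and 0.0983).

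Of 13 genes of LXR signalling, cholesterol efflux, storage and oxidation, 4 rose and 1 fell on day 1, with a median of 0.04. Ch25h, which makes the oxysterol that restrains SREBP2 through INSIG, rose from 1.44 ± 0.60 to 16.4 ± 4.04 CPM (3.47 log2 units, SE 0.32, edgeR adjusted p = 4.08e-08). Soat1, which esterifies cholesterol for storage, rose from 93.8 ± 5.12 to 218 ± 23.3 CPM, Nceh1, an ester hydrolase, by 1.21 log2 units, and the exporter Abca1 by 0.67. Cyp27a1, another oxysterol enzyme, fell by 1.05, from 95.1 ± 2.95 to 46.9 ± 8.60 CPM.

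On day 7, 0 of the 7 genes were called after injury (edgeR, 0 also at an unadjusted p under 0.05 and by DESeq2), where 7.68% of all genes were. Their log2 fold changes ran from -0.32 to 0.29, with standard errors of 0.16 to 0.40. Sqle stood at 11.0, 5.43, 5.65, 6.51 and 5.04 CPM after injury and at 4.36, 5.00, 6.99 and 6.51 CPM without, so the groups overlapped and 1 injured library lay above the rest. Of the 15 other sterol enzymes 0 were called. Of the 13 efflux and LXR genes, 6 rose and 0 fell, among them Ch25h by 4.03 (SE 0.41) and Apoe, the lipid carrier of the brain, by 3.38 (SE 0.23). Nr1h3, which encodes an LXR receptor, rose by 1.42 (SE 0.41), a call lost in 9 of 14 alternatives: the compared groups alone, the replicate block, and leaving out injury-only library 1, 2, 4 or 5 or uninjured library 2, 3 or 4 (adjusted p up to 0.114 by edgeR). The difference between the 2 lists was not tested. Markers of other cells moved in the same comparison: 6 of 7 endothelial, 2 of 7 monocyte, 2 of 8 astrocyte and 2 of 8 oligodendrocyte lineage markers rose, and 4 of 8 microglial markers, 3 of 6 border macrophage markers and 6 of 12 handling genes fell. Endothelial markers summed to 431 to 736 CPM after injury and 153 to 266 CPM without, monocyte markers to 37.6 to 116 and 13.6 to 24.3 CPM, and microglial markers to 21585 to 28390 and 30783 to 36230 CPM. Their part in the changes of the efflux and LXR genes was not tested.

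On day 14, 0 of the 7 genes were called after injury by edgeR or DESeq2, and 0% of all genes were, with 1963 of 14354 genes (Idi1 and Lss among them) at an unadjusted p under 0.05 and 101 called by DESeq2. The 3 uninjured libraries lay far apart. Idi1 stood at 5.44, 7.38 and 36.5 CPM in them and at 7.03, 4.10 and 5.52 CPM after injury (-1.58 log2 units, SE 0.57, edgeR adjusted p = 0.323). The high value was that of uninjured library 3, which held the blood cell markers.

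Lss moved the other way, at 8.48, 3.69 and 2.25 CPM in uninjured libraries and 11.6, 9.02 and 9.48 CPM after injury, with no overlap (1.03, SE 0.40, edgeR adjusted p = 0.324). Such separation was not counted over all genes. Uninjured library 3 was the highest of the 6 libraries for Hmgcs1, Idi1, Fdps, Sqle, Insig1 and Srebf2 and the lowest for Lss. Without it, the fold changes were -0.22 for Idi1 and 0.71 for Lss, and those of Hmgcs1, Sqle, Insig1 and Srebf2 turned positive. Uninjured library 2 was the lowest for Insig1, at 4.95 CPM, against 27.1 CPM in uninjured library 1.

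The call on day 14 rested on which uninjured library was kept. Uninjured library 1 held 54231 CPM of Apoe, against 2401 and 5471 CPM in uninjured libraries 2 and 3 and 32623 to 64988 CPM in the injured libraries. Without library 1, Idi1 (-1.98, adjusted p = 0.0259) and Lss (1.73, adjusted p = 0.00976) passed the test by edgeR, where 12.2% of 15061 genes did. That fit kept uninjured libraries 2 and 3. Library 3, which held the blood cell markers, had the highest Idi1 (36.5 CPM) and the lowest Lss (2.25 CPM). The part of its blood cells in these calls was not tested. Without libraries 1 and 3, which leaves 1 uninjured library assumed to vary like the other groups, Insig1 (2.16, adjusted p = 0.00965) and Lss (1.45, adjusted p = 0.0270) passed it by edgeR, where 15.5% of 16297 genes did.

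**Figure D4:**
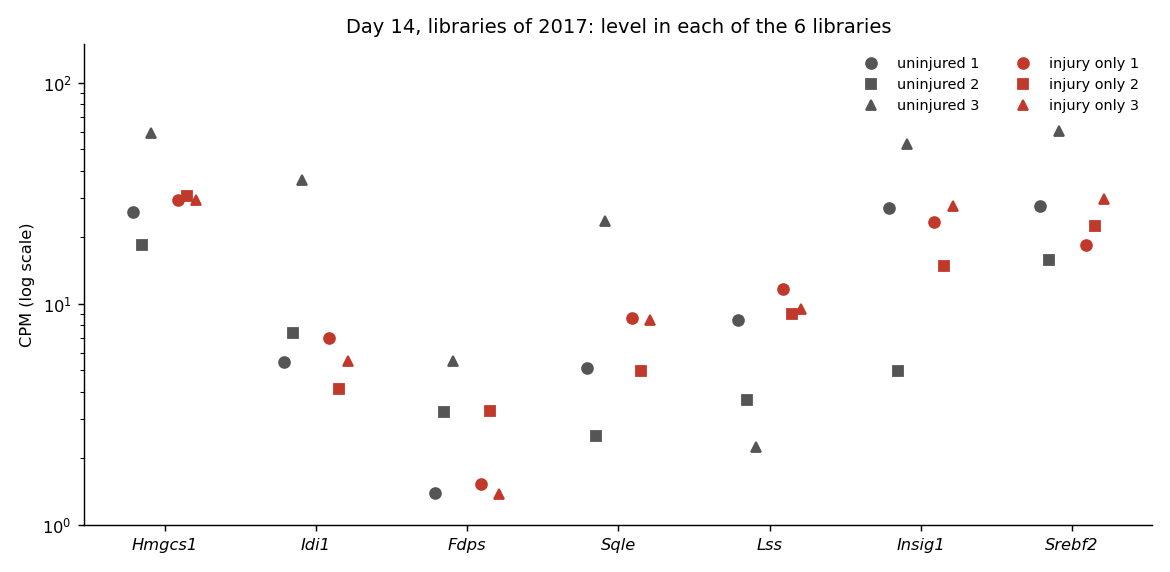
Level of each gene on day 14 in CPM (log axis) in the 3 uninjured and 3 injury-only libraries, with 1 symbol shape per library number. Uninjured library 3 (grey triangle) is the highest point of 6 genes and the lowest of Lss, at 2.25 CPM.

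On day 30, 0 of the 7 genes and 0% of all genes were called after injury (edgeR, 639 genes and 0 of the 7 at an unadjusted p under 0.05, and 0 by DESeq2). Log2 fold changes of the 7 ran from -0.41 to 0.54, with standard errors of 0.15 to 0.37, and every gene's groups overlapped. Sqle was at its lowest of any uninjured group, with 2.56, 3.71, 1.95 and 2.38 CPM, against 5.35, 4.08, 3.59 and 2.45 CPM after injury. Of these 4 injured libraries 3 lay above the uninjured mean.

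On day 60, 0 of the 7 genes were called (edgeR, 0 also at an unadjusted p under 0.05 and by DESeq2), against 0.0416% of all genes. Sqle was at 3.08, 0.397 and 0.528 CPM after injury and at 4.44, 6.97 and 8.001 CPM without, which is 35, 4 and 4 counts against 16, 20 and 29. The groups did not overlap, and the injured libraries were lower, opposite to day 1. Groups without overlap were not counted over all genes on that day. Uninjured libraries of that day were the shallower, at 2930843 to 3739798 total counts against 8431455 to 12306417. Standard errors reached 1.16 on the log2 scale, so changes of the size seen on day 1 were not detectable for Fdps or Sqle. Apoe rose by 3.60 (SE 0.31), the only called gene of the pathway lists.

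Whether the effect of injury differed between days was tested directly over all 84 libraries. Sqle passed this interaction test (edgeR adjusted p = 0.0132), where 13.3% of all genes did, and the other 6 genes did not. Its fitted effects were 1.32, 0.23, -0.49, 0.54 and -2.22 on the log2 scale on days 1, 7, 14, 30 and 60. Those of Lss were 0.67, -0.35, 1.05, -0.10 and 0.72 (adjusted p = 0.0741). The result for Sqle rested on the first and last days: adjusted p was 0.242 without day 1 and 0.119 without day 60, and without day 60 Lss passed instead (0.0226). The libraries of day 14 and those of day 60 were each of another library year than those of days 1, 7 and 30, so a difference between these days cannot be told apart from one between library years.

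The study's main question was whether depleting monocytes with clodronate changes microglia, and clodronate was compared with vehicle on each day. On day 1, 0 of the 7 genes were called (edgeR, 1 at an unadjusted p under 0.05, Srebf2, and 0 by DESeq2), against 0.186% of all genes. Log2 fold changes ran from -0.47 to 0.12 with standard errors of 0.13 to 0.37. Srebf2 stood at 20.7, 20.5 and 18.0 CPM with clodronate and 29.8 and 26.9 CPM with vehicle in the earlier library year. In the later year it stood at 30.5, 29.9 and 39.4 CPM against 35.5 and 46.2 CPM. It was thus lower in every clodronate library than in both vehicle libraries of the earlier year, and the groups of the later year overlapped. Separation within a library year was not counted over all genes. Ch25h, the only called gene of the pathway lists, fell by 1.49 (SE 0.27, edgeR adjusted p = 0.0254). That call was lost in 9 of 17 alternatives (adjusted p up to 0.9995). These were the compared groups alone, each library year alone, and leaving out clodronate library 3 or 4 or vehicle library 1 of the earlier year, or clodronate library 1 or vehicle library 1 or 4 of the later year.

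On day 7 after clodronate the median log2 fold change of the 7 genes was 0.45, against -0.08, 0.02, 0.05 and 0.08 on days 1, 14, 30 and 60. Of the 7 genes 0 were called (edgeR, 0 by DESeq2), against 0.574% of all genes, and 3 were at an unadjusted p under 0.05 (Hmgcs1, Sqle and Srebf2). Fold changes were positive for 6 of 7, with Insig1 the exception at -0.17. The 3 genes at the unadjusted threshold, the signs and the median were not set beside those of all genes, so they are descriptions. Sqle stood at 14.9, 9.52, 6.23, 10.2 and 7.65 CPM with clodronate and at 7.35, 3.61, 0 and 5.34 CPM with vehicle. The ranges overlapped, and the 0 was the shallow vehicle library 4, in which a count of 0 allows up to 2.65 CPM (3 counts, counting error only).

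The log2 fold change of Sqle was 1.00 (SE 0.37, edgeR adjusted p = 0.238), and 0.85 (edgeR adjusted p = 0.327) without that library. Hmgcs1 stood at 36.4 ± 6.45 against 25.8 ± 5.12 CPM (0.45, SE 0.18) and Srebf2 at 25.4 ± 3.63 against 19.5 ± 2.36 CPM (0.36, SE 0.17). Fold changes of Idi1, Fdps and Lss were 0.42, 0.58 and 0.50. The shallow vehicle library 4 was the lowest of its group for each of them, at 1.96, 0 and 1.96 CPM. Their fold changes without it are not given here. Summed monocyte markers were 160 to 249 CPM with clodronate and 112 to 281 CPM with vehicle, and 0 of 7 tested were called. Of 7 endothelial markers 2 rose, with summed levels of 1147 to 2544 CPM against 309 to 915 CPM and no overlap. Border macrophage markers summed to 29.3 to 50.3 CPM against 54.3 to 140 CPM, also with no overlap, with 6 of 6 fold changes negative and 0 called. The part of these markers in the fold changes of the 7 genes was not tested.

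Later days showed no called gene after clodronate. On days 14, 30 and 60, 0 of the 7 genes and 0% of all genes were called by edgeR, with 785, 1199 and 789 genes at an unadjusted p under 0.05, none of the 7 among them. DESeq2 called 17, 36 and 17 genes and 0 of the 7, with no adjusted p for 6 of them on day 60. Fold changes ran from -0.18 to 0.16 on day 14, from -0.40 to 0.20 on day 30 and from -0.75 to 1.03 on day 60, where standard errors were 0.28 to 1.03. Summed monocyte markers of day 14 were 25.8 to 1365 CPM with clodronate (median 677) and 48.3 to 373 CPM with vehicle (median 58.5). Of 8 monocyte markers tested on day 14, 0 were called, and their part in the fold changes of that day was not tested. On day 60 Insig1 was the only one of the 7 whose groups did not overlap, at 15.9, 16.7, 18.0 and 22.1 CPM with clodronate and 9.75, 14.0, 6.48 and 10.4 CPM with vehicle. How many of all genes had groups without overlap on that day was not counted. The clodronate effect was not called as different between days for any of the 7 (edgeR, adjusted p of 0.56 to 0.87), against 0.27% of all genes.

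Vehicle was compared with injury only to ask whether the liposomes themselves moved these genes. Of the 7, 0 were called on days 1, 7, 30 and 60 by edgeR, 0 at an unadjusted p under 0.05 and 0 by DESeq2. All genes were called at 0.875%, 0.336%, 0% and 0.00831% on those days (2057, 1730, 1212 and 695 genes at an unadjusted p under 0.05 by edgeR). All 7 fold changes were positive on day 30, from 0.03 to 0.50 with standard errors of 0.15 to 0.37, and every gene's groups overlapped. On day 1 the vehicle libraries held both library years. These comparisons share their injury-only libraries with the comparisons of injury, and their vehicle libraries with those of clodronate.

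**Figure D5:**
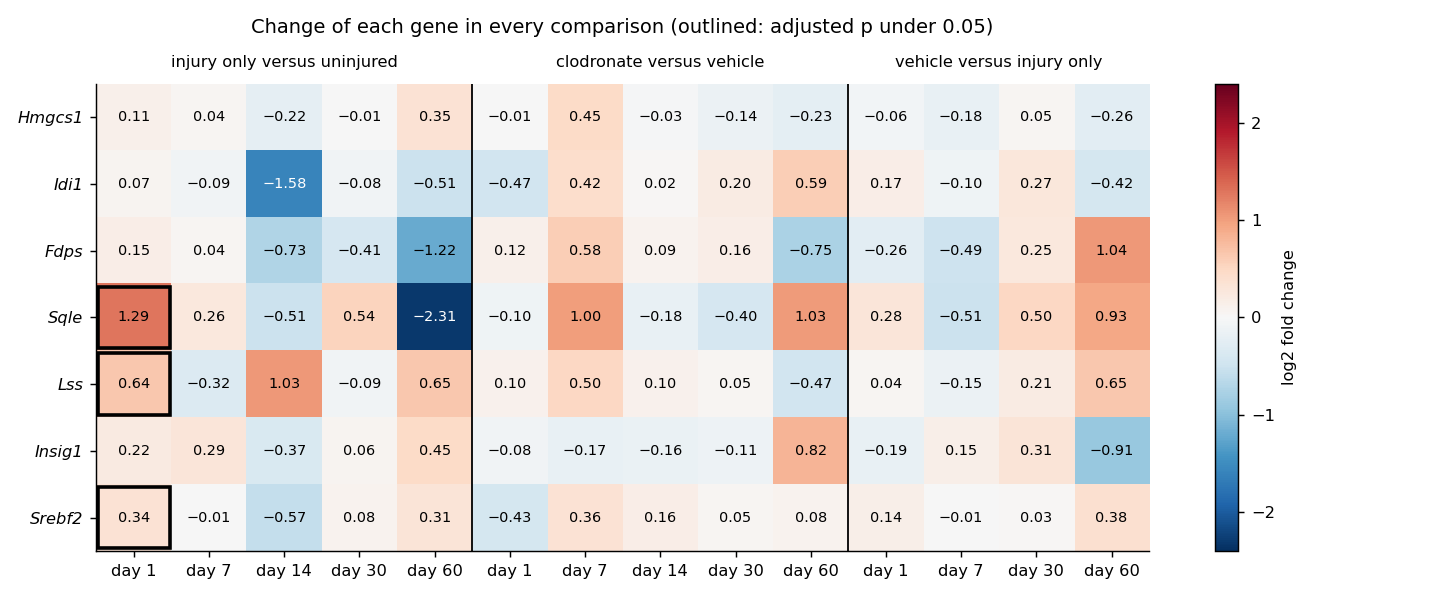
Log2 fold change of each of the 7 genes (rows) in the 14 comparisons (columns, grouped by comparison), on a colour scale from blue (negative) to red (positive), with the value printed in each cell. An outline marks an adjusted p under 0.05 by edgeR, and only Sqle, Lss and Srebf2 on day 1 after injury carry it.

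Levels of the 7 genes were weakly correlated over libraries. With log2 CPM centred within day and library year, the 21 pairs had a median Pearson r of 0.15 over 84 libraries, from -0.08 to 0.52. The closest pairs were Sqle with Idi1 (0.52) and Hmgcs1 with Idi1 (0.51). Sqle followed the mean of the other 6 genes most closely (0.55) and Lss least (0.11). Without the 6 injury-only and uninjured libraries of day 14 the median was 0.09, and r with the others was 0.52 for Sqle, 0.36 for Lss and -0.11 for Insig1. Points share depth and the scaling of each library, and r is a description.

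The genes whose centred level was most like the mean of the 7, among 8342 with a mean log2 CPM of at least 3, were Aco1, a cytosolic aconitase and iron-regulatory protein (r 0.77), and Actn4, an actin crosslinker (0.76). Pdha1, a subunit of pyruvate dehydrogenase (0.71), Msn, or moesin (0.71), and Ogdh, of the citric acid cycle (0.70), followed, with Lcp1 (0.69), Gle1, Mia2, Arhgef3 and Faf1 (0.68 each) after them. Centred within group, r of the 10 was 0.63 to 0.78, and 5 of them were also among the 10 most alike by that measure. Without the same 6 libraries of day 14, r of the 10 was 0.54 to 0.73 over 78 libraries, and 2 of them, Aco1 and Actn4, were among the 10 most alike.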

How the data were processed

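For each of 84 libraries the authors deposited raw read counts per Ensembl gene, without normalisation. The 5 summary lines of a file were left out. Reads were aligned with STAR to mm10 (GRCm38), per the submitters' processing notes; no version, counting settings or strand use were found in the sources used here. Per the labels' protocols, cDNA went through 11 PCR cycles before Nextera XT library preparation; molecular identifiers are not named, so intervals cover counting error only. Reads in no annotated gene made up 2.593% to 22.4% and ambiguous reads 2.62% to 4.07%. Symbols and coordinates came from GENCODE M21.

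The 14 comparisons, all within 1 day, used edgeR 4.0.16 under R 4.3.3 (TMM, filterByExpr with minimum count 10 and minimum total 15, quasi-likelihood F test, 1 fit of the day's 4 treatments, library year as covariate on day 1), with Benjamini-Hochberg adjustment over all genes tested. All 7 genes passed the filter in every comparison. Standard errors are |log2 fold change| over the root of the F statistic. Effect-by-day interactions used all libraries. Vehicle and injury only of day 14 differ in library year, so no comparison was made. The method was tested on simulated data. Over 128 pairs of libraries within groups, chi-square per degree of freedom was at least 6.15, and no pair was treated as duplicates. The criterion for pairing by shared library number was that every correlation of deviations passed 0.1. It was met only for vehicle against injury only on day 30 (4 pairs, 0.118 to 0.251), from the numbers in the library names. Pairing elsewhere is not excluded by it. For the uninjured libraries of day 30 the title and the library name give different numbers, and the latter was used.

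Genes named from the other lists were up to 4 called genes per list and comparison with the smallest p, and the 10 genes most like the 7. The lists were used without 2 genes that are not reported here. The genes, lists and tests were chosen with earlier results of these data known. Alternatives were DESeq2 size factors, the DESeq2 1.42.0 Wald test, no filter, the compared groups alone, a replicate block, each library, year or day left out and, chosen after seeing the data, libraries that stood apart or were shallow left out.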

Additional observations from a re-analysis of the deposited data

Results flagged for a closer look

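Of 98 sets of 4 or 5 libraries (a gene in a group), 7 held a library whose gap to the nearest other was wide beside the range of its group, by Dixon's criterion. Chance gives about 1 in 20 sets. High values were Sqle at 11.0 CPM in injury-only library 1 of day 7, Insig1 at 33.4 CPM in clodronate library 1 of day 7, Insig1 at 26.3 CPM in injury-only library 1 of day 30 and Fdps at 2.02 CPM in vehicle library 3 of day 30. Low values were Idi1 at 4.72 CPM in clodronate library 3 of day 60, Lss at 1.96 CPM in vehicle library 4 of day 7, the shallow library, and Lss at 5.89 CPM in vehicle library 1 of day 30. Sqle passed edgeR's interaction test of the injury effect between days (adjusted p = 0.0132), as did 13.3% of all genes. Its fitted signs were opposite on day 1 (1.32) and day 60 (-2.22), which also differ in library year. Sqle did not pass that test without day 1 (adjusted p = 0.242) or without day 60 (0.119). Its day 60 value rested on few reads, from 4 to 35 per library with injury and from 16 to 29 without.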

How the results depend on the processing

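The count of the 7 genes called after injury on day 1 was 3, and 2 in the alternatives that lost Srebf2. On day 14 it was 0, and 0 to 2 with a library left out, with 2 without uninjured library 1 and 2 without uninjured libraries 1 and 3. In the test of the injury effect by day it was 1, and 0 without day 1. Fold changes that turned sign on day 1 were those of Idi1 (-0.0076 to 0.16) and Fdps (-0.052 to 0.44), with a library left out. On day 14, leaving out a library gave -0.51 to 0.42 for Hmgcs1, -0.96 to 0.93 for Sqle, -0.86 to 0.45 for Insig1 and -0.91 to 0.11 for Srebf2. The replicate block gave 0.061 for Sqle and 0.071 for Insig1. Without uninjured libraries 1 and 3 the fold changes were 0.71 for Hmgcs1, 1.55 for Sqle, 2.16 for Insig1 and 0.60 for Srebf2. The cause was not tested. Of 77 other fold changes of the 7 genes, 34 changed sign in 84 of 1042 alternative values, the largest of them 0.51 in size, and 0 were called. The 7 of clodronate against vehicle on day 7 kept their sign in all 105 alternative values, with 0 called. The replicate block changed no call of the 7 genes but that of Srebf2 on day 1 (adjusted p = 0.0724 by edgeR). Its numbers are shared, and only vehicle against injury only on day 30 met the criterion for pairing. That criterion cannot exclude pairing in the other comparisons.

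Counts over all genes moved more. Called genes after injury numbered 4906 on day 1 (4360 to 5261 over the alternatives), 1097 on day 7 (592 to 1624), 0 on day 14 (0 to 2529), 0 on day 30 (0 to 32) and 5 on day 60 (1 to 37). For clodronate against vehicle they numbered 27 (0 to 382), 82 (0 to 414), 0 (0 to 17), 0 (0 to 140) and 0 (0 to 77) on days 1, 7, 14, 30 and 60. For vehicle against injury only they numbered 127 (14 to 840), 48 (15 to 250), 0 (0 to 31) and 1 (0 to 85) on days 1, 7, 30 and 60. For the tests between days they were 2357 (169 without day 1 to 3073 without day 60) and 48 (0 to 135). Depth limits Fdps and Sqle most, and all 7 genes in the shallow libraries of day 60.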
